A study of Mus musculus with 6 samples.

Results

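Oligodendrocyte precursor cells (OPCs) of the adult mouse olfactory bulb formed 1 of the 38 clusters of a single-cell RNA-seq atlas of 6 libraries. Members were the cells that the study's own cell annotation places in the cluster OPC, which were 397 of 51426 annotated cells. The olfactory bulbs of C57BL/6NJ mice of 14 weeks were compared after 6 weeks without manipulation (control), with a naris plugged to deprive the bulb of sensory input (naris occluded), or with training on an odour discrimination task for a water reward (trained). Each condition had 2 libraries, and each library pooled 3 mice. The labels describe the control mice as unmanipulated, whereas the study's text also describes the open side of occluded mice as the control, so which bulbs the control libraries hold is not settled here. Trained mice were water deprived for the task, so that training and water restriction cannot be told apart. The labels name no allele or transgene. The control libraries held 72 and 65 OPCs, the naris-occluded ones 48 and 77, and the trained ones 85 and 50.

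OPCs are the dividing, self-renewing glial cells of the adult brain that give rise to myelinating oligodendrocytes. They depend on platelet-derived growth factor received through Pdgfra, carry the NG2 proteoglycan encoded by Cspg4, and receive synaptic input from neurons through glutamate and GABA receptors. On leaving the precursor state they pass through a committed stage marked by the receptor Gpr17 before they switch on the genes of myelin, a course steered by the transcription factors Olig1, Olig2, Sox10 and Nkx2-2.

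Levels below are numbers of unique molecular identifiers (UMIs, 1 for each captured RNA molecule at its 3′ end) of a gene, scaled to 1000000 UMIs of all OPCs of a library (CPM). Since reads come from the 3′ end, these levels do not scale with transcript length. Olig2, which specifies the oligodendrocyte lineage, stood at 637 and 734 CPM in control, 925 and 841 in naris-occluded and 765 and 798 in trained libraries. Its mean of 783 ± 97.8 CPM (SD, n = 6 libraries) was the highest of the 38 clusters in every library, with 148 in MyOligo, the myelinating oligodendrocytes. Sox10, which is needed to complete differentiation and is also made by ensheathing glia, stood at 387 and 431 CPM in control, 370.1 and 413 in naris-occluded and 458 and 413 in trained libraries. Here the mean of 412 ± 31.2 was again the highest, but less far ahead of 298 in OEC1, a cluster of olfactory ensheathing cells. Since the cells were clustered and the cluster named on genes of this kind, these levels describe the label and do not test it. Of the 397 OPCs, 293 (73.8%) held a UMI of at least 5 of 8 listed OPC markers, against 3 of 51029 cells in all other clusters. Clusters are named here as in the deposited annotation, whose numbers for some astrocyte, ensheathing cell and neuron clusters differ from those in the study's text.

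Markers of other cells were low but not all absent. Summed over 8 genes each, markers of microglia reached 184 CPM in OPCs, endothelial markers 327 and mural cell markers 78.9. These were 0.451%, 1.47% and 0.358% of the level in the cluster with the most of each. Astrocyte markers summed to 970.5 CPM (6.18% of Astro1), and the 8 genes listed for olfactory sensory neurons to 1907. Most of the latter was Fabp7, a fatty acid binding protein also high in glia, and without it the other 7 summed to 594. In Astro1 of the control libraries Fabp7 stood at 3078 and 2670 CPM. The highest of the marker sums was that of olfactory ensheathing cells, at 1988 (3.80% of OEC4), which also counts Fabp7 and was 675 without it. At least 2 of 4 genes of these cells, Fabp7 among them, were seen in 180 of the 397 OPCs. Neuron markers summed to 601, the highest share of another cluster's level at 7.98% of N10, and markers of myelinating oligodendrocytes to 765 (4.91% of MyOligo). Cnga2 of sensory neurons, Abcc9 of mural cells, Ogn and Col3a1 of mesenchyme and Alas2 of red blood cells had no UMI among the 1209178 UMIs of OPCs, which allows up to 2.48 CPM of each.

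The leading genes of the cluster joined a sialidase, a receptor and proteins of the cell surface and matrix. The 20 genes of at least 50 CPM with the largest ratio to the next cluster, ordered by the ratio after adding 1 CPM to both levels, were Neu4, Gpr17, 3110035E14Rik, C1ql1, 5033426O07Rik, Tnr, Tmem255b, 5730559C18Rik, Fam89a, Snx22, A930009A15Rik, Pak4, Sapcd2, Dct, Fyn, Susd5, Sulf2, Zfp488, Olig2 and Pdgfra. All of the 20 were highest in OPCs in each of the 6 libraries. Because the cells were clustered on these genes, the ratios describe the cluster and were not tested, and those given below are of the levels with nothing added. Neu4, a sialidase that trims sialic acid from surface glycans, averaged 424 ± 51.9 CPM and 2.55 ± 3.96 in MicroG3, the next cluster, a 166-fold ratio. Gpr17, an orphan receptor of committed precursors, stood at 845 and 1092 CPM in control, 677 and 591 in naris-occluded and 982 and 877 in trained libraries. Its mean was 97.2 times that of MyOligo (8.68 ± 8.68). In both ratios the lower level had an SD as large as its mean or larger, so their size is rough. C1ql1, a secreted C1q-like protein that binds synaptic adhesion receptors, averaged 819 ± 72.5, 20.9 times the level of Astro2. Tnr, the matrix protein tenascin-R, averaged 1289.5 ± 119.8 and exceeded N7 16.1-fold.

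Fyn, the kinase that triggers process outgrowth and Mbp translation, averaged 894 ± 245 CPM, with 145 in N10. Zfp488, a nuclear partner of Olig2, averaged 57.4 ± 13.9 and Sulf2, an enzyme that edits heparan sulphate, 377 ± 38.1. Dct, better known as an enzyme of melanin synthesis, averaged 66.4 ± 24.0 and was 6.66 times as high as in MyOligo. Pdgfra stood at 718 and 729 CPM in control, 1000.5 and 653 in naris-occluded and 849.8 and 679 in trained libraries. Its ratio to the next cluster, 5.27, was the smallest of the 20, and the next cluster, with 147, was the mesenchymal cluster Mes1. Over the genome, 14607 genes had a UMI in OPCs, 3756 reached 50 CPM, and 447 of these were higher in OPCs than in any other cluster.

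**Figure D1:**
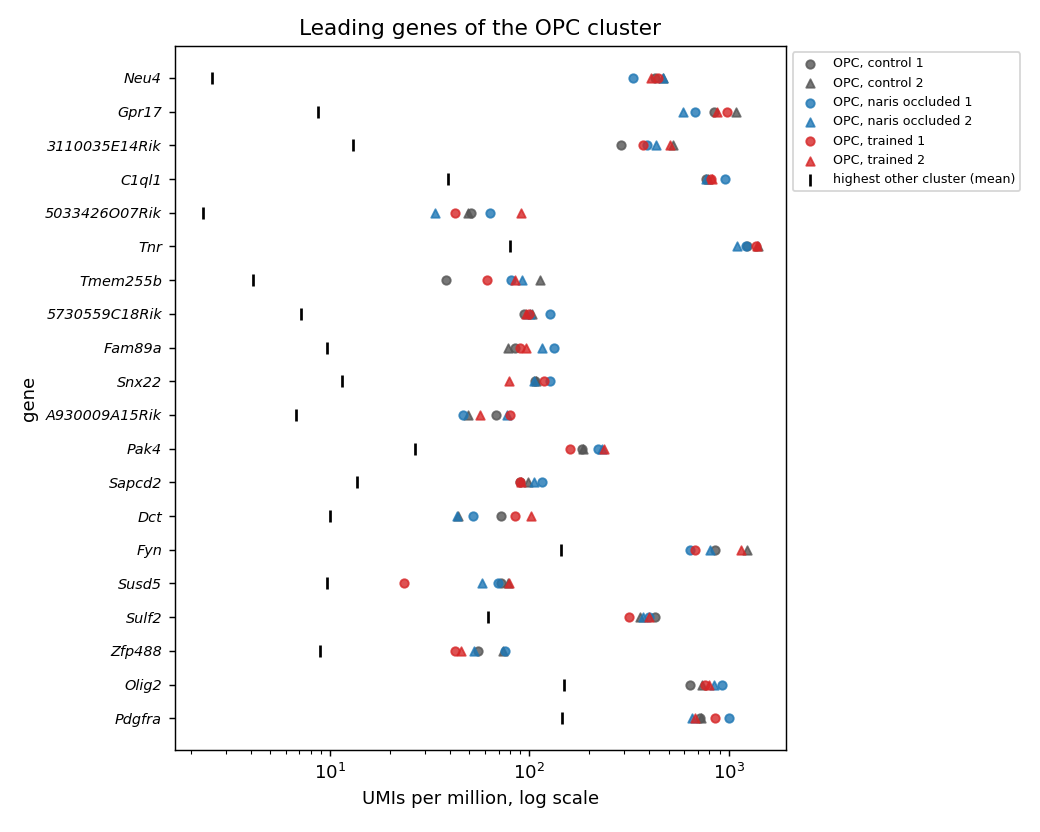
CPM (log axis) of the 20 leading genes of the OPC cluster, with 1 point for each of the 6 libraries and a black mark for the mean of the other cluster with the highest level. Points of OPCs lie above the mark for every gene, with the widest gap for Neu4 (424 against 2.55) and Gpr17 (844 against 8.68).

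Set beside the other glia, OPCs shared genes with astrocytes on one side and with oligodendrocytes on the other. Ptprz1, a receptor phosphatase carrying chondroitin sulphate, averaged 1954 ± 145 CPM against 1538 in the main astrocyte cluster Astro1, and Cspg5, a transmembrane proteoglycan, 1593 against 829. Bcan, the matrix proteoglycan brevican, was lower in OPCs than in Astro1 (734 against 1755). In MyOligo the 3 averaged 47.1, 35.0 and 34.0. Olig1 was shared with MyOligo at 2591 ± 418 against 979, and so was the deacetylase Sirt2 at 2245 against 898.

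Myelin genes were present in OPCs at graded fractions of their MyOligo level. Mbp, myelin basic protein, averaged 2709.6 ± 445 CPM against 9427, a ratio of 0.287. Mag and Mog, surface proteins of finished myelin, averaged 167 against 1862 (0.0897) and 56.6 against 1376 (0.0411). Opalin, a late marker, averaged 7.44 against 999.7 (0.00744). Astro1, which should lack these genes, had 689 CPM of Mbp and 5.18 of Mag. In cells thinned to 1000 UMIs, as described below, Mbp was seen in 42.5% of OPCs and 39.9% of Astro1 cells, so that its share of OPCs was near this background, and Mag in 7.23% and 0.469%. None of the 24 listed myelin genes was highest in OPCs, although 11 had OPCs among their 3 highest clusters.

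**Figure D2:**
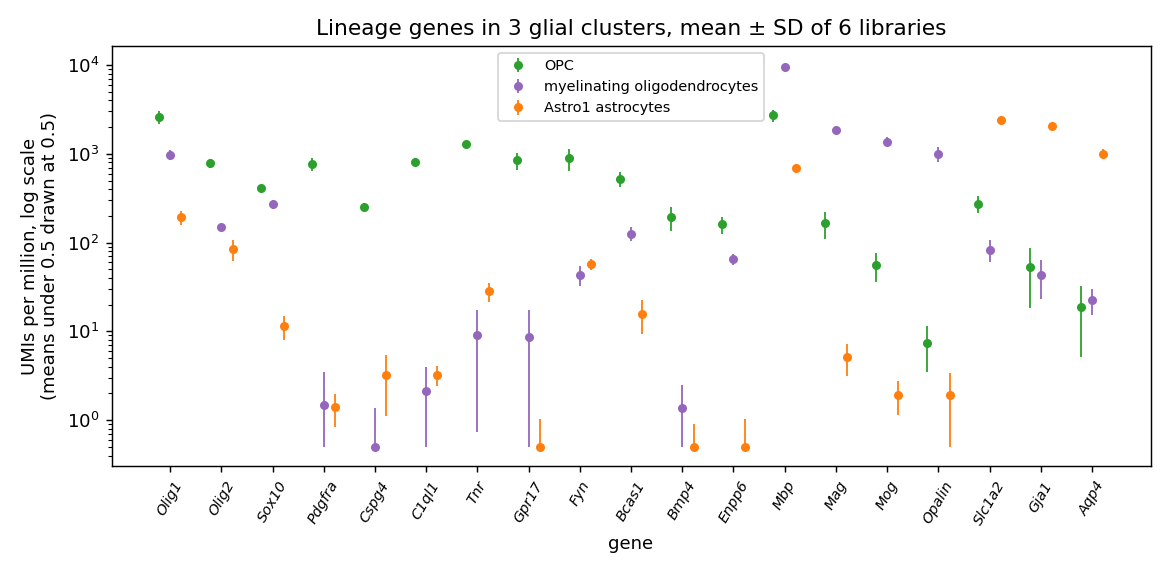
Mean CPM (log axis, error bars SD over 6 libraries, means under 0.5 drawn at 0.5) of lineage genes in OPCs, MyOligo and Astro1. Precursor genes such as Pdgfra (772, 1.50 and 1.40) stand apart in OPCs, and myelin genes such as Mog (56.6, 1376 and 1.94) in MyOligo.

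By role, receptors and signalling genes of growth factors were led by Pdgfra, followed by Ntrk2, the BDNF receptor, at 308 CPM. Of 21 genes in this list 6 were highest in OPCs, namely Pdgfra and the feedback inhibitors and targets of receptor tyrosine kinases Spred1 (142), Etv5 (103), Etv4 (71.5), Spry1 (67.3) and Spry4 (46.3). Fgfr2 averaged 13.9 in OPCs and 254 in MyOligo. Erbb2 had no UMI, which allows up to 2.48. Among 39 transcription factors of the lineage, 12 were highest in OPCs, including Sox8 (409), Sox6 (237), a factor that holds precursors immature, and Nkx2-2 (174). Myrf, the switch for myelin transcription, averaged 58.5 in OPCs and 214 in MyOligo.

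Proteoglycans and matrix genes were highest in OPCs for 7 of 23, among them Vcan (versican, 500.4 ± 93.2 CPM, with 2.33 in MyOligo) and Xylt1 (252), the enzyme that starts chondroitin sulphate chains. Cspg4 averaged 254 ± 27.3 and came after 334 in Mural2, a cluster of mural cells, which also carry NG2. Adhesion and synaptic organiser genes were highest in OPCs for 11 of 30, including Cntn1 (646 ± 29.1), Opcml (528), Nlgn3 (297), the OPC-enriched neuroligin, and Pcdh15 (266). Of 27 glutamate receptor genes, Gria2, the AMPA receptor subunit that limits calcium entry, had the highest level in OPCs at 877 ± 49.9, although neurons of N11 had 3267. The 4 that were highest in OPCs included Cacng4 (453) and Cacng8 (19.2), auxiliary subunits of AMPA receptors, and Grik4 (20.1).

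Of 14 GABA receptor genes none was highest in OPCs, and Gabbr1, a subunit of the metabotropic receptor, averaged 187 CPM. Of 31 ion channel genes only Kcnip3, a potassium channel partner, was highest (307), and Kcnj10, the glial inward rectifier Kir4.1, averaged 168 against 396 in Astro1. In the Notch, BMP and Wnt list 4 of 34 were highest, namely Bmp4 (193 ± 59.2), the Notch ligands Dll1 (33.8) and Dll3 (36.9), and Rnf43 (15.3). Hes5, a Notch target that keeps cells immature, averaged 294. None of 22 genes of cholesterol synthesis and uptake was highest in OPCs. Summed over the list they reached 1007.

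The cluster held cells at different steps of the lineage. To compare cells of unequal depth, each cell was thinned at random to 1000 UMIs, which left out 79 shallower OPCs and kept 318. Of the 318 cells, 195 (61.3%) held a UMI of Pdgfra or Cspg4, the genes of the early precursor, and 131 (41.2%) a UMI of Gpr17. Both were seen in 68 cells, Pdgfra or Cspg4 without Gpr17 in 127, Gpr17 alone in 63, and neither in 60. At the same thinning Gpr17 was found in 0.365% of MyOligo cells and in none of the Astro1 cells, and Pdgfra in 0.122% and 0.156%. Without thinning, 66.2% of all OPCs held a Pdgfra UMI and 59.4% a Gpr17 UMI. A cell without a UMI at this depth may still make the gene, so these are ranges of detection and not separate types.

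Cells with a Gpr17 UMI were richer in genes of the committed stage. Values are CPM of the thinned cells, as means of the 6 libraries, and since the split was made within clustered cells they are given without a test. Fyn was 1135 against 346 (log2 ratio 1.68), Bcas1, an early gene of premyelinating cells, 596 against 239 (1.28), and the Myc family factor Mycl 311 against 73.0 (1.95). Lims2, an adaptor of integrin signalling, was 1237 against 581 (1.08), and Bmp4 208 against 24.7 (2.66). All of these were higher with Gpr17 in each of the 6 libraries. Lower with Gpr17 in all 6 were Cspg5 (1514 against 2214), the G1 cyclins Ccnd1 (268 against 425) and Ccnd2 (45.9 against 218, log2 ratio -2.03), and Id2 (164 against 363), an inhibitor of differentiation. Ratios on the log2 scale were taken after adding 10 CPM. Cells with a Gpr17 UMI had a median of 3500 UMIs before thinning and those without 3170.

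**Figure D3:**
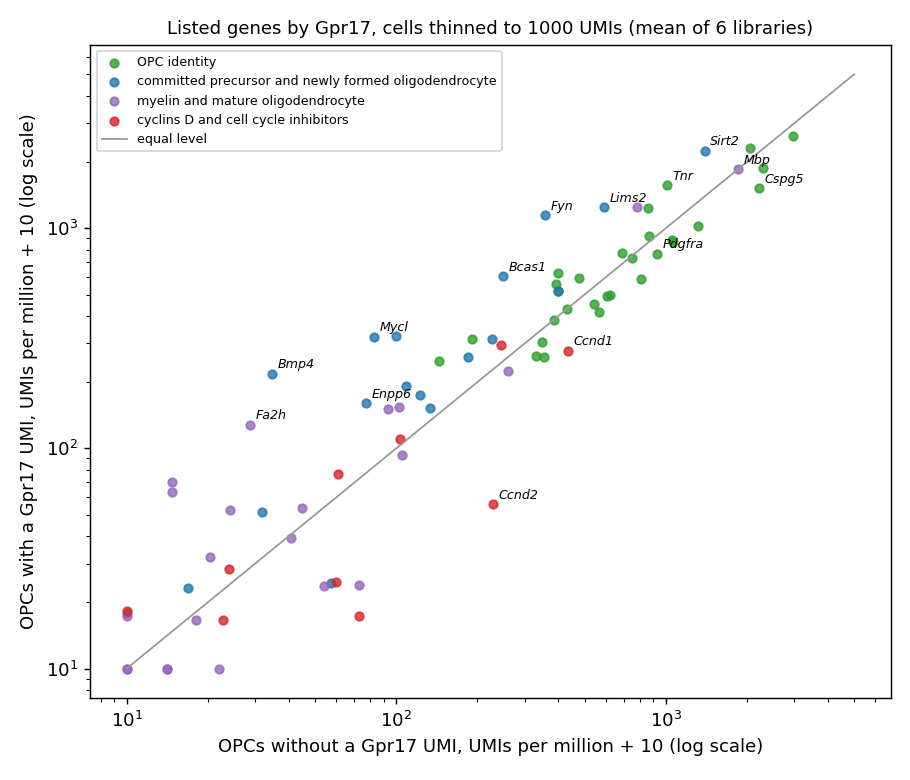
Mean CPM plus 10 over the 6 libraries (both axes log) in thinned OPCs without a Gpr17 UMI, on the horizontal axis, and with one, on the vertical axis, with 1 point for each plotted gene of 4 lists and a line of equal level. Fyn, Bcas1, Mycl and Bmp4 of the committed list lie above the line, and Ccnd1, Ccnd2 and Cspg5 below it.

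At the far end, 38 of the 318 cells (11.9%) held a UMI of Bmp4 or Enpp6, genes of committed precursors and newly formed oligodendrocytes. Only 2 of these also held Pdgfra or Cspg4, whereas 28 held Gpr17 and 16 held Mag, Mog or Opalin. Compared with the 127 cells with Pdgfra or Cspg4 and no Gpr17, they had Fyn at 2674 against 118 CPM, Sirt2 at 5847 against 629, and Nfasc, a node and paranode adhesion protein, at 1159.7 against 27.1. Ptprz1 was 329 against 2557, and Cspg5 had no UMI, which allows up to 78.9 CPM, against 2548. These cells carried more RNA, with a median of 6290 UMIs before thinning against 3076. The study's methods state that droplets with cells of different types had been taken out. No doublet caller was run here on so few cells, and the part of joined cells was not tested. Their number per library was 8 and 8 in control, 4 and 9 in naris-occluded and 6 and 3 in trained bulbs.

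Few OPCs showed genes of division. At least 2 UMIs of 12 genes of S phase and mitosis were held by 9 of the 318 thinned cells (2.83%), namely 3 and 2 in the control, 2 and 1 in the naris-occluded and 1 and 0 in the trained libraries. Mki67, the proliferation antigen, was detected in 2.83% of OPCs, in 1.46% of MyOligo and in no Astro1 cell. Ccnd1, the cyclin that growth factors induce in G1, was highest in OPCs of all clusters in each of the 6 libraries, at 299.8 ± 77.6 CPM, whereas none of the 25 genes of the division list was highest in OPCs, although 16 had OPCs among their 3 highest clusters.

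The OPC pools held 172917 to 235422 UMIs, with a median of 2363 to 3781 UMIs per OPC and of 5.44% to 8.03% of UMIs from mitochondrial genes. Trained replicate 1 stood apart in cell quality, as 27 of its 85 OPCs were under 1000 UMIs, leaving 68.2% for thinning against 80% to 85.7% elsewhere, and 12 had over 20% mitochondrial UMIs against 1 to 8. Within the OPCs, Xist, which female cells make from the inactive X, had 0 or 1 UMI in every replicate 1 and 399 to 538 in every replicate 2, while 4 Y-linked genes had 33 to 39 UMIs in replicates 1 and 0 in replicates 2. Each condition therefore held a male and a female pool, and the 2 values of a condition differ in sex as well as in animals. The starts of cell names for the 2 trained libraries were exchanged relative to the library column of the annotation, for 135 OPCs, and the library column was used. No OPC barcode was shared between OPCs of different libraries. The p-values below measure the spread between pools of mice, with 2 pools in each condition.

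The first question was whether deprivation or training changed how many OPCs the bulb yielded. OPCs made up 0.720% and 0.843% in control, 0.659% and 0.841% in naris-occluded and 0.804% and 0.746% in trained libraries, as a share of all annotated cells. The control and manipulated ranges overlapped. By edgeR's quasi-likelihood test over the 38 cluster counts, the ratio was 0.966 in naris-occluded against control bulbs (95% interval 0.638 to 1.46; adjusted p = 0.94) and 0.996 in trained against control bulbs (0.659 to 1.51; adjusted p = 0.99). Trained against naris-occluded bulbs gave 1.03 (0.681 to 1.56; adjusted p = 0.95). Changes inside these intervals were not detectable with 48 to 85 OPCs per library.

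As a share of the oligodendrocyte lineage (OPC and MyOligo cells together), OPCs were 30.1% and 33.9% in control, 26.2% and 25.6% in naris-occluded and 43.4% and 34.7% in trained libraries. Trained libraries lay above and naris-occluded libraries below both control libraries. The differences in means were -6.08 percentage points for naris occlusion, 7.05 for training and 13.1 between the trained and naris-occluded bulbs. Without trained replicate 1 the difference for training was 2.73 points and without trained replicate 2 11.4. Among cells of at least 1000 UMIs the shares were 26.4% and 30.7% in control, 24.6% and 23.9% in naris-occluded and 35.2% and 30.3% in trained libraries, with trained replicate 2 below control replicate 2, and the difference for training was 4.18, and that between trained and naris-occluded bulbs 8.50. Over all cells each had p = 0.333 in the exact two-sided permutation test, the smallest that 2 against 2 libraries allow. The MyOligo share of all cells had a log2 ratio of -0.82 ± 0.29 (SE) in trained against naris-occluded bulbs, which did not pass the threshold by edgeR's test (adjusted p = 0.054).

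The makeup of the OPC pool by Gpr17 was also compared. Thinned OPCs with a Gpr17 UMI were 39.7% and 38.2% in control, 48.8% and 37.9% in naris-occluded and 44.8% and 40% in trained libraries. The differences in means were 4.41 points for naris occlusion (exact permutation p = 1), 3.50 for training (p = 0.333) and -0.916 for trained against naris-occluded bulbs (p = 1). These values moved with the random draw alone. Another draw of 1000 UMIs from the same 318 cells gave -7.89, 2.06 and 9.95 points, which turns the first and the last in sign, so no direction is read from them.

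**Figure D4:**
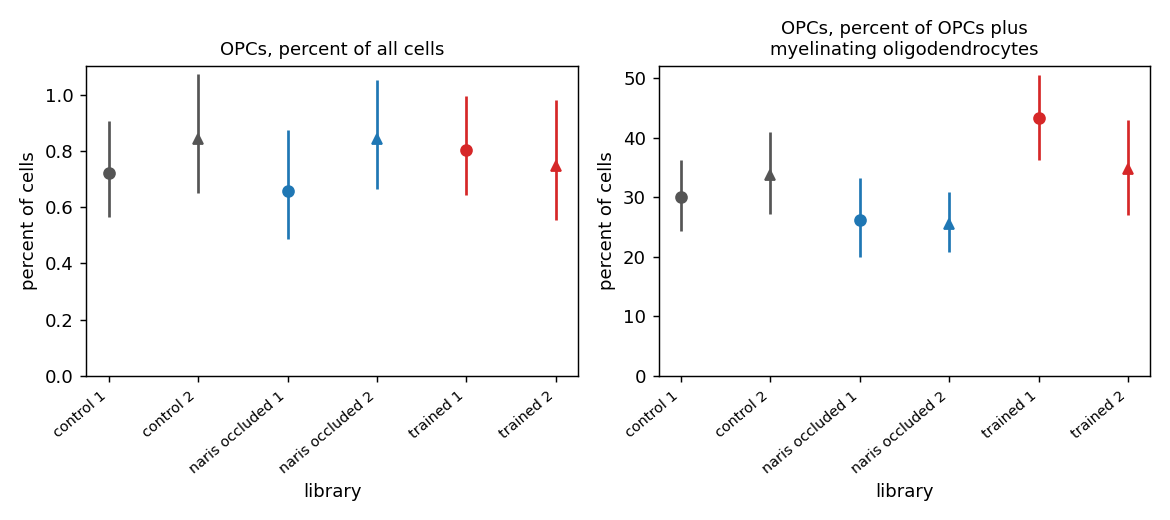
OPCs as a percent of all annotated cells (left) and of OPC plus MyOligo cells (right) in each of the 6 libraries, with 95% exact binomial intervals as error bars, which cover counting error only. Shares of all cells overlap between conditions, and the lineage share runs from 25.6% in a naris-occluded to 43.4% in a trained library.

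Sensory deprivation was then asked about gene by gene, on UMIs summed over the OPCs of each library. After 6 weeks of naris occlusion, OPCs had less S100a5 RNA and more Jun and Fos RNA than control OPCs. These and Gm42418 were the 4 genes called at an adjusted p under 0.05 among 4609 tested (0.0868%), 2 higher and 2 lower, by edgeR's quasi-likelihood test with Benjamini-Hochberg adjustment over the 4609. DESeq2, run without that filter on the 14607 genes with a UMI in OPCs, called 0 genes. It had 29 of the 14607 at an unadjusted p under 0.05 and a smallest adjusted p of 0.20. With the 4 libraries of this comparison alone, edgeR called S100a5 only. Without OPCs with a Mag, Mog or Opalin UMI it called S100a5 and Jun only. By edgeR, 215 genes (4.66%) had an unadjusted p under 0.05. The median log2 change over all tested genes was -0.00305.

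S100a5, a calcium-binding protein abundant in olfactory sensory neurons, had 93 and 82 UMIs in control, 23 and 23 in naris-occluded and 102 and 50 in trained libraries. In CPM these were 395 and 401 in control, 133 and 111 in naris-occluded and 482 and 283 in trained libraries. The 2 naris-occluded libraries were the lowest of the 6. The log2 change was -1.76 ± 0.25 (SE; adjusted p = 5.9e-04, edgeR). Its level was also lower in other cells of the naris-occluded bulbs. In all cells outside the cluster its level was 1262 and 1208 CPM in control, 539 and 208 in naris-occluded and 1272 and 761 in trained libraries, a log2 change of -1.76 that did not pass the test (adjusted p = 0.52). In MyOligo the change was -1.59 (adjusted p = 0.011) and in Astro1 -1.76 (adjusted p = 0.0020). The OPC change minus the change in MyOligo was -0.14 ± 0.32 and minus that in Astro1 0.06 ± 0.29 (SE). S100a5 in OPCs stood at 24.7% to 53.1% of the level in all other cells. In OPCs the 8 markers of sensory neurons, S100a5 among them, summed to 2192 and 1998 CPM in control, 1937 and 2028 in naris-occluded and 1714 and 1574 in trained libraries. Most of this sum was Fabp7, which stood at 1512 and 1204 CPM in control, 1579 and 1667 in naris-occluded and 845 and 1070 in trained libraries. Without Fabp7, a choice made after the values were seen, the other 7 summed to 679.6 and 793 CPM in control, 359 and 360.4 in naris-occluded and 869 and 504 in trained libraries. Both naris-occluded libraries were the lowest of the 6, but this sum counts S100a5 itself. S100a5 fell from 395 and 401 to 133 and 111 CPM, which made up part of the fall of the sum but not all of it. Of these 7, S100a5 and Gng13, a G protein subunit, were tested, and Gng13 stood at -0.80 ± 0.28 (unadjusted p = 0.0074, adjusted p = 0.96, edgeR). The part of RNA from sensory neurons in the change of S100a5 was not tested. In both replicate numbers the 4 called genes changed the same way. S100a5 kept its call without each library in turn.

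Jun, a subunit of the AP-1 transcription factor, stood at 149 and 215 CPM in control, 370.1 and 437 in naris-occluded and 203 and 255 in trained libraries. Its 2 naris-occluded values were the highest of the 6, with a log2 change of 1.12 ± 0.22 (adjusted p = 0.033, edgeR). Fos, its partner, stood at 72.2 and 97.9 CPM in control, 191 and 288 in naris-occluded and 118 and 113 in trained libraries and had a log2 change of 1.48 ± 0.29 (adjusted p = 0.033, edgeR), again with both naris-occluded libraries on top. In all other cells the log2 change was 0.24 for Jun and 0.27 for Fos, in MyOligo 0.50 and 0.47, and in Astro1 0.49 and 0.18, none of them called. The level in all other cells was 256 to 425 CPM for Jun and 161 to 303 for Fos, and the control values of OPCs lay below these ranges, while the naris-occluded ones lay within them or, for Jun in replicate 2, above. The OPC change minus that in MyOligo was 0.63 ± 0.29 for Jun and 1.00 ± 0.40 for Fos (edgeR, adjusted p = 1 and 0.95). The difference between the OPC and the Astro1 change was 0.65 ± 0.28 for Jun and 1.31 ± 0.46 for Fos (edgeR, adjusted p = 0.96 and 0.70). Both genes belong to a list of 26 immediate early and stress genes that also rise when tissue is dissociated, whose part was not tested. Of its 12 tested members 2 rose, 9 had values above and 3 below control, and the median was 0.32. In 4 of the 12 both naris-occluded libraries lay above both controls (16.2% of all tested genes), and in 2 below them (18.4%). Summed over the list, the level was 3538 and 3295 CPM in control, 3973 and 3988 in naris-occluded and 3989 and 3782 in trained libraries. Gm42418, a gene model that overlaps a ribosomal RNA repeat, stood at 255 and 235 CPM in control, 127 and 67.3 in naris-occluded and 212 and 147 in trained libraries and had a log2 change of -1.41 ± 0.29 (adjusted p = 0.039, edgeR), with -0.55 in all other cells. Without control replicate 1, Jun, Fos and Gm42418 had adjusted p of 0.58, 0.55 and 0.46, and without naris-occluded replicate 2 0.098, 0.29 and 0.23. Without control replicate 2, Fos had 0.084 and Gm42418 0.084.

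Genes of differentiation had values below control without passing the test. In the list of committed precursors and new oligodendrocytes none of 16 tested genes was called, 13 were lower and 3 higher, 5 had an unadjusted p under 0.05, and the median log2 change was -0.31. In 8 of the 16 both naris-occluded libraries lay below both controls, as in 18.4% of all tested genes. Gpr17 stood at -0.66 ± 0.18 (unadjusted p = 8.7e-04, adjusted p = 0.49, edgeR), with both naris-occluded libraries below all others, Fyn at -0.56, Lims2 at -0.50, Bcas1 at -0.40 and Mycl at -0.60. Among 12 tested myelin genes 9 were lower, with a median of -0.19, and Mbp stood at -0.37. Of the 30 OPC identity genes 18 were above and 12 below control (median 0.11), and of the 30 tested transcription factors 17 and 13 (median 0.12). Both naris-occluded libraries lay above both controls in 10 identity genes and 8 transcription factors (16.2% of all tested genes). They lay below both in 4 and 4 (18.4%). None of these lists held a called gene. Of the 6 tested markers of olfactory ensheathing cells 5 were also lower, 1 at an unadjusted p under 0.05, with a median of -0.59, and the 8 listed summed to 2583 and 1772 CPM in control, 2099 and 2330.3 in naris-occluded and 1478 and 1664 in trained libraries. Their part in the values above was not tested. The 13 transcripts of the mitochondrial genome, a measure of cell condition, had a median of -0.28, with 6 at an unadjusted p under 0.05 and none called. The gene with the next smallest p was Lgi3, a secreted synaptic protein, at -1.98 ± 0.44 (adjusted p = 0.084, edgeR), which was not called. With the replicate number, which follows the sex of the pool, as a block it was called (adjusted p = 0.020, edgeR), as it was with OPCs of at least 1000 UMIs (0.025) and without trained replicate 1 (0.040).

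Training was compared with control in the same way. No gene was called in trained OPCs (0 of 4609, 0%). By edgeR 226 genes (4.9%) had an unadjusted p under 0.05 and the smallest adjusted p was 0.11. DESeq2 also called 0, with 33 of 14607 at an unadjusted p under 0.05. The 5 genes with the smallest p were Ube2c, Hbb-bs, Hmgb2, Id2 and Tmco3, all lower in trained OPCs. Ube2c, a ubiquitin-conjugating enzyme of mitosis, had 25 and 12 UMIs in control, 2 and 9 in naris-occluded and 1 and 0 in trained libraries, all from 9 cells (the 0 allows up to 17.0 CPM), and adjusted p = 0.11 (edgeR). Ube2c passed the filter on low counts through the 2 control libraries alone, so its lower value after training was in part set by the filter. Hmgb2, a chromatin protein of cycling cells, stood at 238 and 152 CPM in control, 179 and 149 in naris-occluded and 104 and 51.0 in trained libraries (log2 -1.31 ± 0.32; adjusted p = 0.30, edgeR), with both trained libraries lowest. Id2 stood at 285 and 323 CPM in control, 295 and 264 in naris-occluded and 165 and 164 in trained libraries (log2 -0.89 ± 0.22; adjusted p = 0.30, edgeR), likewise with the trained libraries lowest. Hbb-bs, a beta globin, stood at 132 and 78.3 CPM in control, 109.9 and 101 in naris-occluded and 18.9 and 34.0 in trained libraries (log2 -2.03 ± 0.45; adjusted p = 0.21), and its log2 change in all other cells was -1.16 (adjusted p = 0.55). Tmco3, a predicted cation-proton exchanger, had -1.48. With the replicate number, which follows the sex of the pool, as a block, edgeR called 3 genes, all lower, namely Ube2c, Hbb-bs and Hmgb2 (adjusted p = 0.0057, 0.015 and 0.041).

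Genes of division had lower values in trained OPCs, without a call except under some alternatives. Over 25 genes the summed level was 1206 and 896 CPM in control, 1012 and 817 in naris-occluded and 633 and 362 in trained libraries, both trained libraries being the lowest of the 6. Of 6 tested genes 4 were lower, 3 of them with an unadjusted p under 0.05, and the median was -1.004, beside 0.00183 over all genes. Only these 6 of the 25 passed the filter on low counts, Ube2c through the control libraries alone. These counts and the median are therefore in part set by the filter. In 3 of the 6 both trained libraries lay below both controls (17.3% of all tested genes). Alternatives that called division genes, all lower, were no filter on low counts (Ube2c and the centromere proteins Cenpa and Cenpf), genes with at least 5 UMIs in 2 libraries, OPCs of at least 1000 UMIs and leaving out control replicate 2 (each Ube2c), and the replicate block and leaving out either naris-occluded library (each Ube2c and Hmgb2). DESeq2 and leaving out control replicate 1 or either trained library called none of them. All 6 tested cyclins D and cell cycle inhibitors were lower (median -0.39). The 2 with an unadjusted p under 0.05 by edgeR were inhibitors of division, Cdkn2c at -2.04 and Cdkn1b at -0.98. The cyclins Ccnd1 and Ccnd2 stood at -0.43 and -0.12. These sums rest on few cells, as Mki67 was seen in 18 and Top2a, a topoisomerase of dividing cells, in 17 of the 397 OPCs. Fewer dividing cells and less RNA per cell cannot be told apart from sums of this kind. Myelin genes had a median of -0.43 (10 of 12 lower), with Cldn11, the tight junction protein of myelin, at -0.78 (unadjusted p = 4.1e-04, adjusted p = 0.30). The committed list had a median of -0.25 (15 of 16 lower) and cholesterol genes -0.41 (10 of 11 lower). Both trained libraries lay below both controls in 6 of the 12 myelin genes, 2 of the 16 committed and 5 of the 11 cholesterol genes, and the share in the committed list was under that of all tested genes. Identity genes had 0.07 (20 of 30 higher), and in 11 of them both trained libraries lay above both controls (17% of all tested genes). None of these genes was called. Markers of other cells also differed in level, without a call. Of the 6 tested markers of olfactory ensheathing cells all were lower, 3 at an unadjusted p under 0.05 (median -0.53), and the 8 listed summed to 2583 and 1772 CPM in control, 2099 and 2330.3 in naris-occluded and 1478 and 1664 in trained libraries. Without Fabp7 the other 7 summed to 1070.4 and 568 CPM in control, 520.5 and 663 in naris-occluded and 633 and 594 in trained libraries, where trained and control libraries overlapped. The 3 tested microglial markers were higher (median 0.59, sums 110.4 and 157 CPM in control, 81.0 and 235 in naris-occluded and 326 and 192 in trained libraries), and so were the 4 of neurons (median 0.35, sums 501 and 558 CPM in control, 699.8 and 399 in naris-occluded and 727 and 719 in trained libraries). Their part in the values of the lists was not tested.

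Trained and naris-occluded OPCs, the ends of the range of sensory input, differed in 2 called genes of 4609 (0.0434%), both higher after training (edgeR). DESeq2 called 0 and had 46 of 14607 at an unadjusted p under 0.05. By edgeR 281 (6.1%) had an unadjusted p under 0.05. S100a5 was 1.72 ± 0.26 higher on the log2 scale (adjusted p = 0.0013, edgeR), from the values given above, and this comparison shares its naris-occluded libraries with the one against control. With OPCs of at least 1000 UMIs S100a5 was not called, and with the 4 libraries of this comparison alone no gene was. Hspa5, the chaperone BiP of the endoplasmic reticulum, had 69 and 46 UMIs in control, 26 and 41 in naris-occluded and 87 and 70 in trained libraries, or 293 and 225 CPM in control, 150.4 and 197 in naris-occluded and 411 and 396 in trained libraries. Both trained libraries were the highest of the 6 and both naris-occluded the lowest. The log2 difference was 1.24 ± 0.22 (adjusted p = 0.010, edgeR), and in all other cells 0.61 (adjusted p = 0.080). Manf, another protein of that compartment, was not called at 1.09 ± 0.23 (adjusted p = 0.067), nor were Hbb-bs at -1.97 and Fabp7 at -0.73 (adjusted p = 0.15 and 0.15). With the replicate number as a block, edgeR called 7 genes, which included these 3 (adjusted p = 0.0052, 0.017 and 0.0062) beside S100a5, Hspa5, Dynll1 and Pcp4. In MyOligo and Astro1, S100a5 was also higher, at 1.83 and 1.43 (adjusted p = 9.9e-04 and 0.0061, edgeR). Fabp7 was lower there, at -0.99 and -0.64 (adjusted p = 0.022 and 0.0073, edgeR). So was Hbb-bs, at -4.83 and -2.71 (adjusted p = 9.9e-04 and 0.0029, edgeR), with 112 and 1440 CPM in MyOligo of the naris-occluded libraries. Hspa5 and Manf were higher in both clusters without a call. Without trained replicate 1, S100a5 had adjusted p = 0.37 and Hspa5 0.24, and without naris-occluded replicate 1 Hspa5 had 0.056.

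Of the lists, immediate early and stress genes were lower after training than after occlusion in 8 of 12 (median -0.61; 6 lower and 2 higher at an unadjusted p under 0.05), with Fos at -1.03, Jun at -0.80 and Jund at -0.98, none called. In 7 of the 12 both trained libraries lay below both naris-occluded ones (15.9% of all tested genes), and in 4 above them (18.7%). All 6 tested division genes were lower (median -1.37). Mitochondrial transcripts were higher in 13 of 13 (median 0.33) and ribosomal protein genes in 76 of 91 (median 0.17), beside a median of 0.00709 over all tested genes. Both trained libraries lay above both naris-occluded ones in 10 of the 13 mitochondrial and 45 of the 91 ribosomal genes (18.7% of all tested genes). Of the markers of other cells, the 4 tested of neurons were higher (median 0.53, 2 at an unadjusted p under 0.05), as were the 3 of microglia (0.53). Of those of myelinating oligodendrocytes 3 of 4 were lower (median -0.49), and of ensheathing cells 3 were higher and 3 lower. None of these was called, and their part in the values of the lists was not tested.

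**Figure D5:**
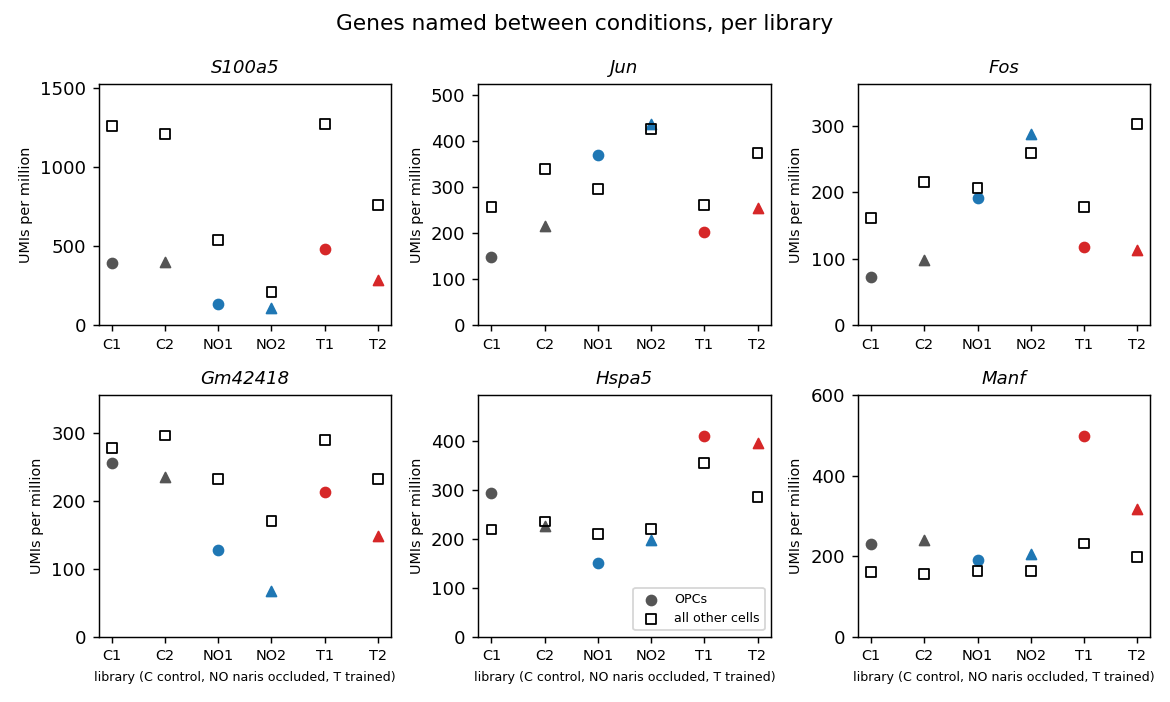
CPM of S100a5, Jun, Fos, Gm42418, Hspa5 and Manf in OPCs (filled points) and in all other cells (open squares) of each of the 6 libraries, without error bars. In OPCs S100a5 is lowest in the 2 naris-occluded libraries (133 and 111), as it is in the other cells, and Jun and Fos are highest there.

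Whether OPCs answered differently from their progeny and from astrocytes was tested as an interaction, the change in OPCs minus the change in the other cells. Against MyOligo under training, 5 of 6794 genes (0.0736%) differed. Mt1 and Mt2, metallothioneins that bind zinc and respond to glucocorticoids, were among them. Mt1 stood at 1066 and 1048 CPM in control, 850.1 and 889 in naris-occluded and 1043 and 809.5 in trained libraries in OPCs. In MyOligo Mt1 was 1380.4 and 1163 in control, 1197 and 1685 in naris-occluded and 2543 and 2379 in trained libraries, where both trained values were the highest, and the difference of log2 changes was -1.12 ± 0.17 (adjusted p = 2.2e-06, edgeR). For Mt2 it was -1.48 ± 0.31 (adjusted p = 0.0051, edgeR), with 251 and 211 CPM in control, 168 and 135 in naris-occluded and 231 and 169.8 in trained libraries in OPCs. Gjc3, the gap junction protein connexin 29, was the one gene higher in OPCs relative to MyOligo. It stood at 416 and 392 CPM in control, 596 and 548 in naris-occluded and 647 and 628 in trained libraries in OPCs and 562 and 617 in control, 562 and 444 in naris-occluded and 469.7 and 537 in trained libraries in MyOligo, a difference of 0.91 ± 0.22 (adjusted p = 0.040, edgeR). Rras2 and the glucocorticoid-induced kinase Sgk1 had differences of -3.89 ± 0.79 (adjusted p = 0.0039, edgeR) and -1.48 ± 0.34 (adjusted p = 0.036, edgeR), in OPCs relative to MyOligo. The value of Sgk1 rests on trained replicate 1, where MyOligo had 785 CPM and every other library 85.0 to 105, and without it the difference was 0.84. Mt1 kept its call without each library in turn, and the other 4 lost theirs without at least 3 of the 6 libraries. Against Astro1 under training, 1 of 9221 genes (0.0108%) differed, Hmgb2 at -1.77 ± 0.38 (adjusted p = 0.026, edgeR), a call lost without control replicate 1 or either trained library.

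Under naris occlusion 2 of 6794 genes (0.0294%) differed between OPCs and MyOligo, both globins of red blood cells. Hbb-bs stood at 132 and 78.3 CPM in control, 109.9 and 101 in naris-occluded and 18.9 and 34.0 in trained libraries in OPCs and 111 and 44.6 in control, 112 and 1440.2 in naris-occluded and 28.1 and 27.4 in trained libraries in MyOligo, a difference of -3.29 ± 0.41 (adjusted p = 6.0e-11, edgeR). For Hba-a2 the difference was -3.82 ± 0.77 (adjusted p = 0.0037, edgeR). Without naris-occluded replicate 2 these were -0.52 and -1.29, both with an adjusted p of 0.96. Against Astro1 the test called 0 of 9221 (0%), with 438 at an unadjusted p under 0.05 (edgeR). No interaction passed the threshold for S100a5, Jun, Fos or Gm42418 against either cluster.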

How the data were processed

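Olfactory bulbs were dissociated with papain and sequenced with the 10x Chromium 3′ v2 kit, and the study states that some olfactory epithelium cells are included. Per the labels, the authors used Cell Ranger 2.0.0 and Seurat 2.2.1 with mm10, and, as the study's methods state, kept cells with at least 200 genes. The authors deposited UMI counts per gene and cell (52549 barcodes), and a cell annotation that gives clusters, library and the mitochondrial share as a fraction. OPCs were the cells annotated as such. Their counts were summed per library and tested in edgeR 4.0.16 (R 4.3.3, TMM scaling, genes kept by filterByExpr, quasi-likelihood test over all 6 libraries, Benjamini-Hochberg adjustment, threshold 0.05), with DESeq2 1.42.0, without filterByExpr, as an alternative. Interactions were fitted on the sums of OPCs and of MyOligo or Astro1, and cluster shares on the counts of cells. Shares of cells with a UMI came from cells thinned to 1000 UMIs (Python 3.11.15, NumPy 2.4.6). Levels (CPM) are UMIs scaled to 1000000 UMIs, without TMM. Intervals of the ratios of OPC shares were taken from the SE of edgeR's fit by a normal approximation and include spread between libraries. Binomial intervals of shares and limits of a count of 0 (3 counts) cover counting error only. Scripts were tested on simulated data.

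The members and gene lists were chosen with earlier results of these data known. Named were genes of the lists, the 20 leading genes of the cluster, and, per comparison, the 10 called genes of smallest p that moved one way in both replicate numbers, or the 5 with the smallest p, given as not called, where fewer than 5 were called. Genes of the interactions and of the sex check were named after their values were seen. The alternatives tried were scaling, filters on genes and cells, the replicate block, and leaving out libraries. Values of a few listed genes are not reported here. No sequences were needed and none is printed.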

Additional observations from a re-analysis of the deposited data

Results flagged for a closer look

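In 8 genes the change between conditions differed between OPCs and another glial cluster by a test of the difference itself (edgeR's quasi-likelihood test on library sums, adjusted over all genes of each fit). Values are OPC change minus the other cluster's change, log2 ± SE. Under training, against MyOligo, these were Mt1 at -1.12 ± 0.17, Mt2 at -1.48 ± 0.31, Rras2 at -3.89 ± 0.79, Sgk1 at -1.48 ± 0.34 and Gjc3 at 0.91 ± 0.22. Hmgb2, against Astro1 under training, was at -1.77 ± 0.38. Under naris occlusion, against MyOligo, Hbb-bs was at -3.29 ± 0.41 and Hba-a2 at -3.82 ± 0.77.

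Mt1 kept its call without each library in turn. Mt2 lost it without control 1, control 2 or trained 2 (adjusted p 0.056 to 0.42), and Rras2 without control 1, trained 1 or trained 2 (adjusted p 0.069 to 0.96). Gjc3 lost it without control 1, control 2, naris-occluded 2, trained 1 or trained 2 (adjusted p 0.078 to 0.92) and Sgk1 without control 1, control 2, naris-occluded 2 or trained 1 (adjusted p 0.084 to 0.97). Hmgb2 lost it without control 1, trained 1 or trained 2 (adjusted p 0.053 to 0.99). Hbb-bs lost its call without naris-occluded 2 and Hba-a2 without control 1 or naris-occluded 2 (adjusted p 0.76 to 0.96). MyOligo of naris-occluded 2 held 415 CPM of Hba-a2, against 2.81 to 23.2 in the other 5 libraries. Rras2 in OPCs had 106 CPM in control 1 and 4.80 to 29.4 in the others. The part of these single libraries in the results was not tested beyond leaving them out.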

How the results depend on the processing

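Called genes were 4, 0 and 2 for naris-occluded against control, trained against control and trained against naris-occluded OPCs. They were 4, 0 and 2 with RLE factors, the same with totals only, 4, 4 and 8 without a filter, 4, 1 and 3 with at least 5 UMIs in 2 libraries, and 0, 0 and 0 by DESeq2. With the 4 libraries of each comparison alone they were 1, 0 and 0, with OPCs of at least 1000 UMIs 5, 1 and 1, at most 20% mitochondrial UMIs 4, 0 and 3, and without OPCs with a Mag, Mog or Opalin UMI 2, 2 and 3. Leaving out a library gave 1 to 7, 0 to 3 and 0 to 8, and for the 4 interactions 1 to 6, 1 to 7, 0 to 2, 0 to 2. With the replicate number as a block the counts were 5, 3 and 7, adding Lgi3 in the first comparison and Hbb-bs, Hmgb2 and Ube2c in the second. The 7 of the third were S100a5, Hspa5, Dynll1, Fabp7, Hbb-bs, Manf and Pcp4. The main tests had no such block, although the numbers follow the sex of the pool. Leaving out a library left its condition with only male or only female mice, so sex and condition cannot be told apart there. Xist was among the genes called without naris-occluded replicate 2. Deviations of same-numbered libraries correlated at 0.0720 to 0.0900 over all tested genes. Such a value does not decide whether sex belongs in the model. S100a5 lost its call in trained against naris-occluded OPCs with cells of at least 1000 UMIs (1.19, adjusted p = 0.098, edgeR). The causes of these differences were not tested.

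The log2 ratio of the OPC share of all cells for training turned from -0.01 to 0.0763 among non-neuronal cells, 0.0887 with TMM factors, 0.00492 with the replicate block and 0.0146 with pooled cells, all within its error. Leaving out a library gave -0.24 to 0.11, -0.12 to 0.11 and -0.11 to 0.24 for the 3 comparisons, in the order above. Pooled over cells, which are not replicates, the lineage share differed by -5.96, 7.92 and 13.9 points, and leaving out a library gave -7.95 to -4.22, 2.73 to 11.4 and 8.82 to 17.5. The Gpr17 share differed by -6.94, -0.262 and 6.68 points at 500 UMIs, -1.97, 0.781 and 2.75 without thinning, -7.89, 2.06 and 9.95 in another draw, and -1.04 to 9.86, 1.08 to 5.91 and -6.37 to 4.54 with a library left out. The difference for Sgk1 ran from -2.62 without trained replicate 2 to 0.84 without trained replicate 1. Its sign turned there. With 2 pools per condition and 48 to 85 OPCs per library, the median SE over genes was 0.36 on the log2 scale for naris occlusion, and the parts of depth and of the spread between pools in it were not separated.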
